A study of Mus musculus with 39 samples.

Results

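The genes described here are the adult mouse globin genes Hba-a1, Hba-a2, Hbb-b1 and Hbb-b2 and the erythroid haem synthesis gene Alas2, taken by symbol from both deposited tables. They were 5 of 16979 genes in the table of 32 labelling libraries and 5 of 13938 genes in the table of 7 fixation libraries, and all passed the filter on low values in each comparison. The study, in mice, asked which RNA muscle stem cells make in the animal and how isolation changes it. The labelling mice were Pax7CreER/+: UPRTHA/+, in which Pax7-CreER, active in muscle stem cells, switches on the enzyme UPRT. This enzyme allows cells to use the uracil analogue 4-thiouracil (4tU) in making new RNA.

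Of the 8 groups of 4 labelling libraries, 3 held RNA pulled down from hindlimb muscle after 4tU in vivo for 6 h (TU_6h in vivo), 1 d (TU_1d) or 4 d (TU_4d). The longer labels were repeated injections at intervals of 12 h. Total RNA of hindlimb muscle formed the whole muscle group (Input_muscle), and total RNA of purified stem cells formed the isolated cells group (Input_MuSC). RNA labelled by 4tU during the isolation of about 6 h and then pulled down from the purified cells formed the isolation label (TU_sort ex vivo). The alpha-amanitin group (MuSC_aAM) came from cells isolated with this inhibitor of RNA polymerase II, and the DMSO group (MuSC_ctrlAM) from cells isolated with its solvent. In the fixation experiment, whose mice carry no stated genotype, stem cells came from mice perfused with 1% paraformaldehyde (Fix, 4 libraries) or from unfixed mice (Fix_Control, 3 libraries). Ages are not given in the labels. The labels call the in vivo labelled RNA stem cell RNA, although its source was RNA of the whole muscle. Nor do they say whether replicates were separate animals, so the p-values given here measure library-to-library spread alone, which may be technical.

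Haemoglobin, the oxygen carrier of red cells, joins alpha chains, encoded by Hba-a1 and Hba-a2, to beta chains, encoded by Hbb-b1 and Hbb-b2, around haem. Alas2 encodes the erythroid form of the first enzyme of haem synthesis, and its relative Alas1 serves other cells. These genes are transcribed in red cell precursors in the bone marrow and spleen. Young red cells enter the blood without a nucleus but with globin RNA, which is long-lived. Skeletal muscle is rich in blood and makes its own oxygen-binding protein, myoglobin.

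The copies within each globin pair were nearly the same sequence, which limits how far their values can be told apart. The coding sequences of Hba-a1 and Hba-a2, each 429 bases, differed by 1 base, C381T, and those of Hbb-b1 and Hbb-b2, each 444 bases, differed by C417T. Positions are counted from 1 at the A of the start codon, and the first base is that of Hba-a1 or Hbb-b1. The stretch around the difference is shown for each copy, 5′ to 3′ on the coding strand, with the differing base in capitals. All 4 stretches are exonic and coding.
Hba-a1 (chr11:32284313-32284373, plus strand): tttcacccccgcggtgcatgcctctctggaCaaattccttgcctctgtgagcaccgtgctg
Hba-a2 (chr11:32297130-32297190, plus strand): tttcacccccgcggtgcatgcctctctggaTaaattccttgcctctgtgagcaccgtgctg
Hbb-b1 (chr7:103826665-103826725, minus strand): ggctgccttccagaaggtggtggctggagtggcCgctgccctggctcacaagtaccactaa
Hbb-b2 (chr7:103812656-103812716, minus strand): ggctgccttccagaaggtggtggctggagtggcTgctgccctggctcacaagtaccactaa

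Reads were 101 bases long. Of all windows of that length in the GENCODE transcript of Hba-a1, 56.3% (337 of 599) also occurred in Hba-a2, and 74.2% (337 of 454) of those of Hba-a2 occurred in Hba-a1. For the beta pair the shares were 62.5% (330 of 528) for Hbb-b1 and 54.7% (330 of 603) for Hbb-b2. The sources used here do not say how the authors placed such reads, so the split between copies is uncertain. Since the copies' exons differ in length (812 and 667 bases for Hba-a1 and Hba-a2, 863 and 703 for Hbb-b1 and Hbb-b2), the RPKM sum of a pair depends on it as well, to a lesser extent. On mm10 the files place Hba-a1 at chr11:32283511-32284465 and Hba-a2 at chr11:32296489-32297298. They place Hbb-b1 at chr7:103826534-103828096, Hbb-b2 at chr7:103812524-103813996 and Alas2 at chrX:150547375-150570638. The files' Hbb-b1 and Hbb-b2 carry the identifiers ENSMUSG00000052305 and ENSMUSG00000073940, which GENCODE names Hbb-bs and Hbb-bt.

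The regions before Hba-a2, Hbb-b1 and Alas2 are shown as background, and those before Hba-a1 and Hbb-b2 are not printed. Whether these regions play a part in the levels that follow was not tested. The bases come from RefSeq (GRCm38.p6), which held a promoter window for each of the 5 genes, and each run stops before the files' gene model. Capitals mark a GATA word (AGATAA or its variants TGATAA and AGATAG, and also TGATAG, on either strand), the kind of site that the erythroid factor Gata1 binds.
Hba-a2 (chr11:32296242-32296488, plus strand): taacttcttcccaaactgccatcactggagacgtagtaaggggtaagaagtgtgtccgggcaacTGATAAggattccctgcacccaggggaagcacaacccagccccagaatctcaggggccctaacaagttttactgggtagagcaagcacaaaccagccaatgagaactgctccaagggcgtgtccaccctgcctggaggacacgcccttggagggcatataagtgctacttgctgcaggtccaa
Hbb-b1 (chr7:103828097-103828178, minus strand): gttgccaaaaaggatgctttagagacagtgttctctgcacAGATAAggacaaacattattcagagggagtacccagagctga
Alas2 (chrX:150547167-150547374, plus strand): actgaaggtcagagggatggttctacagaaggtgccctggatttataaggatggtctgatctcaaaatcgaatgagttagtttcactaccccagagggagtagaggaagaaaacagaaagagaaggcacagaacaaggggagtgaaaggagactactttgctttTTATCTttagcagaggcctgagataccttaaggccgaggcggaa
In the 250 bases before the RefSeq start, Hba-a1, Hba-a2, Hbb-b1 and Alas2 each held 1 GATA word and Hbb-b2 held 0. Of 32851 promoter windows of that length, 26.5% held 1 or more. The windows of Hba-a1 and Hba-a2 shared an unbroken run of 247 bases, and those of Hbb-b1 and Hbb-b2 one of 14 bases.

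Levels are the authors' RPKM values, which count reads per kilobase of a gene's exons relative to the library's scaled total. Reads recovered from them ran from 15307952 to 102619074 per labelling library outside the isolation label, from 2321903 to 7742378 in the isolation label and from 22704011 to 25045404 in the fixation libraries. The satellite cell markers Pax7, Myf5, Calcr and Chrdl2 summed to 359 to 395 RPKM in isolated cells, 136 to 227 in the isolation label, 348 to 430 with DMSO and 331 to 652 with alpha-amanitin, and to 411 to 749 in unfixed and 177 to 464 in fixed cells of the other table. In whole muscle they summed to 3.29 to 3.59 RPKM, in the 6 h label to 12.7 to 13.9, in the 1 d label to 3.04 to 3.67 and in the 4 d label to 2.25 to 3.42. Alpha-amanitin replicate 1 stood apart from the other 3 replicates of its group for all 5 genes. Fewer cells of a type and less RNA per cell cannot be told apart in these bulk libraries.

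All 5 genes were highest in the 4 d label, next in whole muscle and lowest in isolated cells. Hba-a1, the alpha globin with the higher RPKM, had a mean of 1603 ± 97.1 RPKM in the 4 d label (SD, n = 4 here and in every labelling group). In whole muscle its mean was 1219 ± 58.5. It stood at 479 ± 17.1 after 1 d of label, 357 ± 104 in the isolation label, 195 ± 8.84 after 6 h and 108 ± 45.8 with alpha-amanitin. It stood at 24.8 ± 1.58 with DMSO and 10.4 ± 1.30 in isolated cells. The same order, with no overlap between neighbouring groups, held for Hbb-b1, which ran from 1740 ± 89.4 RPKM in the 4 d label to 15.3 ± 0.634 in isolated cells. Hba-a2, from 235 ± 17.6 down to 4.18 ± 0.602 RPKM, had the isolation label above the 1 d label, and its alpha-amanitin and 6 h libraries overlapped. Hbb-b2, from 171 ± 12.9 down to 1.71 ± 0.0519 RPKM, overlapped between the isolation label and the 1 d label. Alas2 had the lowest mean of the 5 in each labelling group, from 24.5 ± 0.858 RPKM in the 4 d label to 1.22 ± 0.195 in isolated cells, where Hbb-b2 was close to it. Its libraries overlapped between the 4 d label and whole muscle, between the isolation and 6 h labels, between the 6 h label and alpha-amanitin, and between alpha-amanitin and DMSO.

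**Figure D1:**
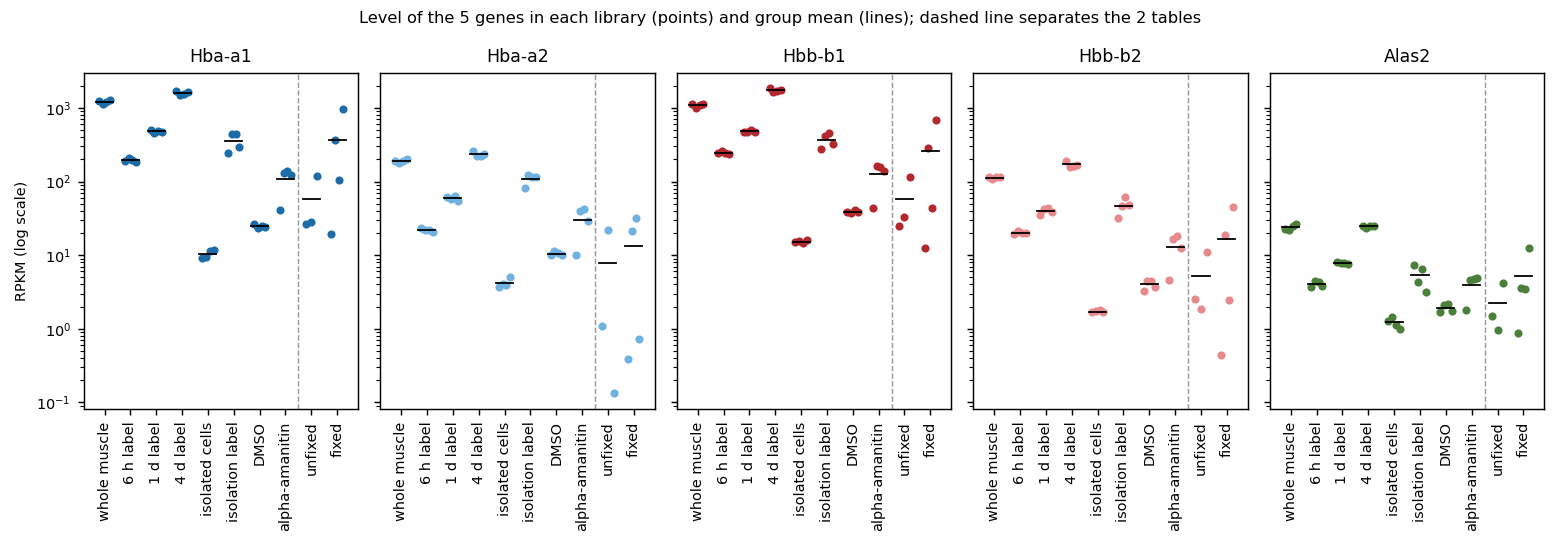
RPKM on a log axis of each of the 5 genes in every library (points), with group means (lines), for the 10 groups; the dashed line separates the fixation table, which was normalised separately. Each gene is highest in the 4 d label and lowest in isolated cells among the labelling groups, and the fixation libraries spread over more than any labelling group.

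The 4 globin genes took 0.222 ± 0.0114% of all reads in the 4 d label, 0.135 ± 0.00728% in whole muscle, 0.0642 ± 0.00164% after 1 d and 0.0324 ± 0.00229% after 6 h. In the isolation label they took 0.0835 ± 0.0131%, with alpha-amanitin 0.0224 ± 0.0070%, with DMSO 0.00970 ± 0.00122% and in isolated cells 0.00495 ± 0.00033%. Shares of reads do not depend on the authors' library scaling. They gave the same ends to the order, the 4 d label and isolated cells, although the isolation label ranked above the 1 d label on this scale.

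With longer 4tU labelling in vivo, all 5 genes rose at each step. Hba-a1 measured 192, 207, 198 and 186 RPKM in the 4 libraries of the 6 h label. It measured 496, 458, 490 and 472 RPKM in those of the 1 d label and 1715, 1487, 1571 and 1637 RPKM in those of the 4 d label. No library of a shorter label reached any library of a longer one. Hbb-b1, the beta globin with the higher RPKM, measured 238 to 257, then 477 to 504, then 1629 to 1839 RPKM. Alas2 measured 3.71, 4.39, 4.28 and 3.85 RPKM at 6 h, 8.12, 7.77, 7.95 and 7.61 RPKM at 1 d, and 24.7, 23.3, 25.12 and 25.05 RPKM at 4 d. The enzyme gene thus rose at the same steps as the globins, at a far lower level than Hba-a1 or Hbb-b1.

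From 6 h to 1 d, all 5 genes were called, lower at 6 h, at a limma adjusted p under 0.05. Of 11822 genes tested, 86.2% were called in either direction and 36.2% were lower, so a call by itself said little in this comparison. The differences, on the log2(RPKM + 0.5) scale used throughout for differences, were −1.29 ± 0.045 (SE) for Hba-a1, −1.42 ± 0.0535 for Hba-a2, −0.97 ± 0.0407 for Hbb-b1, −0.95 ± 0.0583 for Hbb-b2 and −0.88 ± 0.0555 for Alas2. The largest adjusted p among them was 5.27e-09, that of Alas2. Of the 5, the alpha globins alone differed by 2-fold or more, a size that 5.73% of genes reached in this direction.

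The 4 d label stood further off. All 5 genes were called lower at 6 h than at 4 d, where 36.1% of 11975 genes were lower, and each by 2-fold or more, as 6.91% of genes were. Hba-a2 was 10.5-fold lower at 6 h, Hbb-b2 8.24-fold, Hba-a1 8.18-fold, Hbb-b1 7.03-fold and Alas2 5.50-fold, with a largest adjusted p of 3.50e-12. Counted from the lowest of all genes tested, Hba-a2 ranked 5, Hbb-b2 14, Hba-a1 15, Hbb-b1 20 and Alas2 32. From 1 d to 4 d the 5 genes were again all called lower at the shorter label, where 21% of 11232 genes were lower. All 5 were lower by 2-fold or more, as 0.748% of genes were. Hbb-b2 was 4.25-fold lower at 1 d, Hba-a2 3.94-fold, Hbb-b1 3.59-fold, Hba-a1 3.34-fold and Alas2 2.99-fold, and the largest adjusted p was 8.41e-10. These 3 comparisons share their groups with each other, so their counts are not separate evidence.

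Whole muscle lay between the 1 d and 4 d labels for the 4 globin genes. Hba-a1 measured 1236, 1140, 1218 and 1280 RPKM there, Hbb-b1 1118, 1010, 1112 and 1139 RPKM, and Alas2 22.6, 21.9, 24.6 and 26.3 RPKM. At 6 h, the level as a percent of the whole muscle mean was 16.04 for Hba-a1, 11.5 for Hba-a2, 22.5 for Hbb-b1, 17.9 for Hbb-b2 and 17.03 for Alas2. At 1 d these percentages were 39.3, 31.1, 44.2, 35.2 and 33 in the same order of genes, and at 4 d they were 132, 123, 159, 151 and 103. Globin RNA in the pull-down thus went from well below its level in total RNA to above it, and Alas2 RNA in the pull-down came to overlap total RNA. The libraries include no pull-down from unlabelled muscle, so how much of this RNA carried 4tU was not measured.

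Against whole muscle, all 5 genes were called lower in the 6 h label, where 44.4% of 11746 genes were lower, and 12.3% by 2-fold or more. The size ran from −3.09 ± 0.0486 for Hba-a2 to −2.15 ± 0.0408 for Hbb-b1, with −2.42 ± 0.065 for Alas2 and a largest adjusted p of 2.17e-12. All 5 were also called lower in the 1 d label, where 54.7% of 11158 genes were lower, and 3.29% by 2-fold or more. There the size ran from −1.68 ± 0.0548 for Hba-a2 to −1.18 ± 0.0462 for Hbb-b1. In the 4 d label 4 of 5 were called higher than whole muscle, where 28.1% of 11347 genes were higher. The difference was 0.67 ± 0.0468 for Hbb-b1 (adjusted p = 3.57e-08), 0.59 ± 0.0504 for Hbb-b2 (2.31e-07), 0.39 ± 0.0482 for Hba-a1 (6.93e-06) and 0.30 ± 0.0552 for Hba-a2 (2.54e-04). For Alas2 it was 0.04, with a 95% interval from −0.07 to 0.16 (adjusted p = 0.457). With 1 spread shared by all 8 groups, the calls of Hba-a1 (adjusted p = 0.160) and Hba-a2 (0.303) ended, and when libraries were instead scaled to all their reads Alas2 was called as well (0.24, adjusted p = 4.66e-04). The median of all genes lay at −0.21 in this comparison and at −0.06 with that scaling. The 3 comparisons share the whole muscle libraries.

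**Figure D2:**
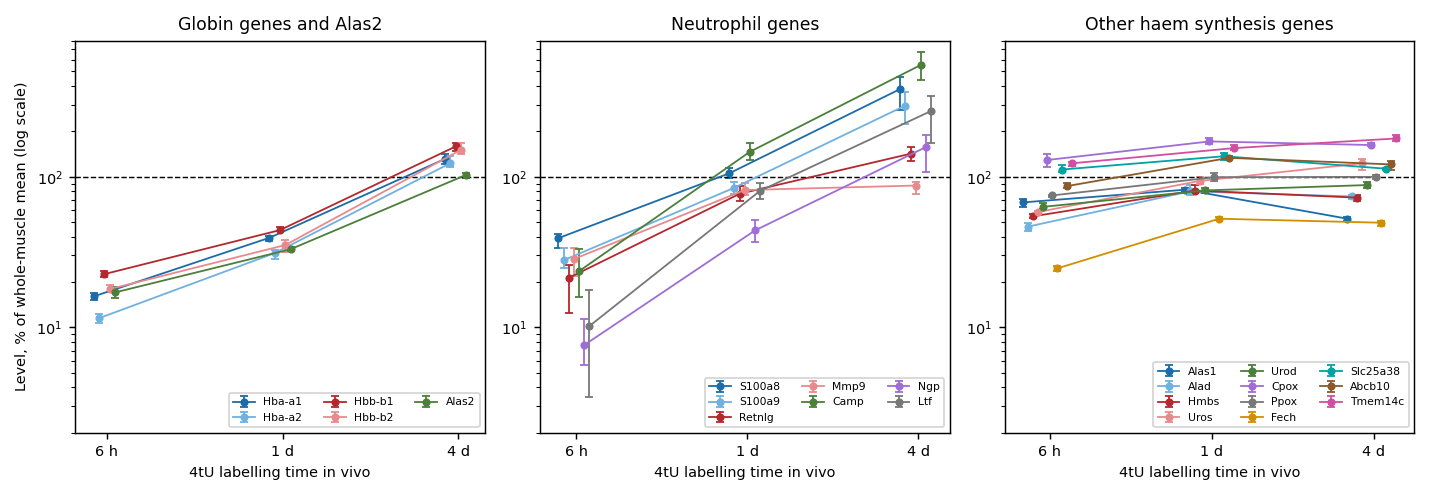
Mean level as a percent of the whole muscle mean (log axis; bars span the lowest to the highest of 4 libraries) against 4tU labelling time, for the 5 genes, the 7 measured neutrophil genes and the 11 other haem synthesis genes; the dashed line is whole muscle. The globins go from 11.5 to 22.5% at 6 h to 123 to 159% at 4 d, and the neutrophil genes S100a8 and Camp reach 383% and 552%, whereas the median haem synthesis gene stays at 67.5 to 99.8%.

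Other genes of the red cell programme moved unevenly with the label. The lists were chosen with earlier results of these data known and are given as counts. Of 11 red cell membrane and skeleton genes 2 were tested against the 4 d label. Both were lower at 6 h (median −0.95) and at 1 d (−0.52) than at 4 d, and higher at 4 d than in whole muscle (1.01). Only 1 was tested at 6 h against 1 d, where it was lower (−0.87). The filter on low values may thus have set the direction of the other. Of 10 late maturation genes 6 were tested, and 5 of these were lower and 1 higher at 6 h than at 4 d (median −0.97; median of all genes 0.18). Bpgm, the bisphosphoglycerate mutase that tunes the oxygen affinity of haemoglobin, stood at 18.4 ± 0.415, 38.3 ± 2.27 and 47.7 ± 1.95 RPKM at 6 h, 1 d and 4 d, against 83.2 ± 3.43 in whole muscle. It was called higher at each longer label and lower than whole muscle at 4 d. Slc4a1, the anion exchanger of the red cell membrane, was too low to be tested, at 0.0885 ± 0.0231, 0.297 ± 0.0505, 0.864 ± 0.183 and 0.453 ± 0.00749 RPKM in the same order of groups. Gata1 lay at 0.137 to 0.348 RPKM in these 4 groups and was not tested either. No values were found under the symbols Klf1, Epor or Ahsp in either experiment.

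The haem pathway shared with other cells was called in the same direction as Alas2 at the first step but mixed at the second. All 11 haem synthesis genes tested besides Alas2 were lower at 6 h than at 1 d (median −0.40; all genes 0.13), and 9 were lower and 1 higher at 6 h than at 4 d (median −0.45; all genes 0.18). At 1 d, against 4 d, 3 were lower, 4 higher and 4 not called (median 0.09; all genes 0.04). Alas1, the form of the first enzyme that other tissues use, stood at 57.9 ± 3.20, 70.3 ± 1.36 and 45.2 ± 1.25 RPKM at 6 h, 1 d and 4 d, against 85.8 ± 1.30 in whole muscle. Fech, the last enzyme of the pathway, stood at 39.98 ± 1.37, 85.5 ± 1.64 and 80.4 ± 2.84 RPKM, against 163 ± 4.73. Alas1 was called higher at 1 d than at 4 d (0.63, adjusted p = 9.89e-08), the opposite of Alas2, and Fech was not called (0.09, adjusted p = 0.0774).

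Myoglobin, the oxygen store of muscle fibres and a distant relative of the globins, took another course. Mb stood at 1167 ± 27 RPKM at 6 h, 1853 ± 106 at 1 d, 1795 ± 47.6 at 4 d and 2065 ± 41.9 in whole muscle. Its difference from 6 h to 4 d was −0.62 ± 0.0351 (adjusted p = 4.70e-09), and 1 d and 4 d were not called different (0.04, adjusted p = 0.484), where the 5 genes rose by 2.99-fold or more. Cygb, the cytoglobin of connective tissue cells, ran from 6.99 ± 0.550 RPKM at 6 h to 11.9 ± 0.836 at 1 d, its lowest and highest means in these groups. It was called lower at 6 h than at 1 d and at 4 d, and higher at 1 d than at 4 d. Receptors and iron transporters of red cell precursors were mixed, with 1 of 3 tested higher, 1 lower and 1 not called at 6 h against 1 d, and 2 higher and 1 lower at 6 h against 4 d. The lower one in both was the transferrin receptor gene Tfrc, which serves iron uptake. Tfrc rose from 14.4 ± 1.35 RPKM at 6 h to 16.8 ± 0.777 at 1 d and 19.5 ± 0.606 at 4 d, against 16.01 ± 0.842 in whole muscle, and was called at each step. The platelet factor Pf4 stood at 19.9 ± 1.52, 36.4 ± 2.497 and 49.7 ± 3.61 RPKM, against 51.1 ± 2.59 in whole muscle, where it was 1 platelet gene of 7 that could be tested.

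Markers of another blood cell moved with the globins. Of 8 neutrophil genes 7 were tested, and all 7 were lower at 6 h than at 4 d (median −3.20), while 6 were higher and 1 lower at 4 d than in whole muscle (median 1.15; median of all genes −0.21). S100a8, a calcium-binding protein of neutrophils, stood at 8.75 ± 0.819, 23.6 ± 1.48 and 85.6 ± 17.8 RPKM, against 22.4 ± 1.40 in whole muscle, and Camp, an antimicrobial peptide of their granules, at 1.48 ± 0.454, 9.20 ± 1.11 and 34.7 ± 6.39, against 6.28 ± 0.298. The 7 genes summed to 15.4 to 20.5 RPKM at 6 h, 57.8 to 66.1 at 1 d, 155 to 242 at 4 d and 66.1 to 70.2 in whole muscle. Macrophage genes did not share this course, with 4 of 7 higher and 3 lower at 6 h than at 4 d and 6 of 7 lower at 4 d than in whole muscle. Nor did lymphocyte genes, with 3 of 6 higher, 2 lower and 1 not called at 6 h against 4 d (median 0.20). At 4 d, 5 of these 6 were lower than in whole muscle and 0 higher. The 8 muscle fibre genes summed to 72965 to 80372 RPKM at 6 h, 135128 to 147515 at 1 d, 140629 to 150486 at 4 d and 127746 to 134106 in whole muscle. Their part in the globin differences was not tested.

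Isolated stem cells held little globin RNA. Hba-a1 measured 9.17, 9.46, 11.4 and 11.7 RPKM, Hbb-b1 15.1, 15.5, 14.5 and 16.01 RPKM, and Alas2 1.28, 1.46, 1.13 and 1.01 RPKM in the 4 libraries of isolated cells. The values rested on 222 to 353 reads per library for Hba-a1 and on 35 to 52 for Hbb-b2. Against whole muscle all 5 genes were called lower, as were 46.5% of 14813 genes, and by 2-fold or more, as were 31.4%. Hba-a1 was 112-fold lower, Hbb-b1 69.4-fold, Hbb-b2 51.4-fold, Hba-a2 41.1-fold and Alas2 14.2-fold, with a largest adjusted p of 3.92e-13. Scaled to all reads, the log2 differences shrank from −6.81 to −5.22 for Hba-a1 and from −3.82 to −2.45 for Alas2, while the median of all genes moved from 0.06 to 1.59. Relative to that median the differences changed little. Of 7 red cell membrane and skeleton genes tested, 6 were higher in isolated cells and 1 lower (median 1.67). The 6 passed the filter on low values only through the isolated cells, so their direction was set by the filter. Among them Kel, a blood group antigen, stood at 1.05 ± 0.103 against 0.0290 ± 0.0195 RPKM. The ankyrin gene Ank1, which muscle fibres also use, was the lower one, at 1.82 ± 0.169 against 10.1 ± 0.462 RPKM. Slc4a1 stood at 0.577 ± 0.0493 RPKM and Gata1 at 0.767 ± 0.179. The 8 muscle fibre genes fell further than the globins, to between 0.0866% and 0.215% of their whole muscle means, against 0.856% for Hba-a1 and 5.12% for Alas2.

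RNA pulled down after labelling during isolation was far richer in globin than the total RNA of the same kind of cells. Hba-a1 measured 243, 443, 447 and 294 RPKM, Hba-a2 81.4, 122, 115 and 114 RPKM, and Hbb-b1 278, 414, 455 and 324 RPKM in replicates 1 to 4 of the isolation label. Hbb-b2 measured 31.7, 46.4, 62.5 and 48.0 RPKM and Alas2 7.33, 4.36, 6.57 and 3.15 RPKM. Each library lay above every library of isolated cells for each gene. Replicates 2 and 3 were the highest for Hba-a1, Hba-a2 and Hbb-b1 but not for Hbb-b2, nor for Alas2, which rested on 182, 27, 102 and 43 reads. All 5 genes were called higher than in isolated cells, where 29.8% of 14863 genes were higher, and by 2-fold or more, as 23.2% were. Hba-a1 was 31.8-fold higher (adjusted p = 1.87e-07), Hba-a2 23.1-fold (8.90e-08), Hbb-b1 22.9-fold, Hbb-b2 20.9-fold (2.49e-07) and Alas2 3.27-fold (4.11e-04). Scaled to all reads, the differences were smaller, at 4.32 for Hba-a1 and 1.21 for Alas2, and all 5 genes were called, while the median of all genes went from −0.07 to −0.71.

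Genes of muscle fibres, of neutrophils and of some other cells rose in the same RNA. All 8 fibre genes were higher (median 7.29), and each stood at 16.5 to 18.2% of its whole muscle mean, a narrow band, while the globins and Alas2 stood at 22.5 to 56.6% of theirs. By library the fibre genes summed to 8969, 33879, 36218 and 10422 RPKM in replicates 1 to 4. Replicates 2 and 3 were thus the highest, as for Hba-a1, Hba-a2 and Hbb-b1 but not for Hbb-b2 or Alas2. Of 6 neutrophil genes tested 5 were higher (median 3.0). The 7 measured summed to 134, 87.4, 118 and 128 RPKM in replicates 1 to 4, with replicate 2 the lowest, against 8.30 to 10.1 in isolated cells. All 6 macrophage genes tested (median 2.57) and all 3 fibro-adipogenic genes (median 2.91) were higher too. Of 6 lymphocyte genes 2 were higher and 4 not called (median 1.03), and of 3 endothelial genes 0 were higher. Of 11 haem synthesis genes 7 were higher and 4 not called (median 0.99). The 4 satellite cell markers were all lower (median −1.13). What RNA of fibres, blood cells or other cells contributed to the globin values was not tested.

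Globin RPKM was lower in the 6 h label in vivo than in the isolation label of about the same length. Neither label had a pull-down from unlabelled muscle or cells beside it, so how much of this RNA carried 4tU was not measured. Against the isolation label, 4 of 5 genes were called lower in the 6 h label, where 24.4% of 13003 genes were lower. Hba-a2 differed by −2.26 ± 0.148 (adjusted p = 3.01e-06), Hbb-b2 by −1.16 ± 0.191 (6.95e-04), Hba-a1 by −0.82 ± 0.204 (0.00671) and Hbb-b1 by −0.55 ± 0.165 (0.0166). Alas2 differed by −0.30, with a 95% interval from −0.84 to 0.24 (adjusted p = 0.298). It was called without isolation label replicate 4 (−0.51, adjusted p = 0.0395) and when scaled to all reads (−0.80, 0.0255). The RNA came from different sources, whole muscle and purified cells, so each label was next compared with its own total RNA. On that scale the isolation label was above isolated cells for all 5 genes and the 6 h label below whole muscle for all 5. The difference of these differences was called for all 5 genes, in the higher direction for 33.4% of 15451 genes tested. It was 7.63 ± 0.227 for Hba-a1, 7.62 ± 0.168 for Hba-a2, 6.66 ± 0.170 for Hbb-b1, 6.84 ± 0.197 for Hbb-b2 and 4.12 ± 0.264 for Alas2 (adjusted p = 1.37e-09). Hba-a1 ranked 27 from the highest, Hba-a2 28 and Alas2 402. Scaled to all reads, the values ranged between 3.24 for Alas2 and 6.63 for Hba-a2, and the median of all genes went from −0.23 to −1.06. All 8 fibre genes and all 7 neutrophil genes tested were called in the same direction (medians 8.08 and 4.83), and the 4 satellite cell markers in the other (median −2.04).

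**Figure D3:**
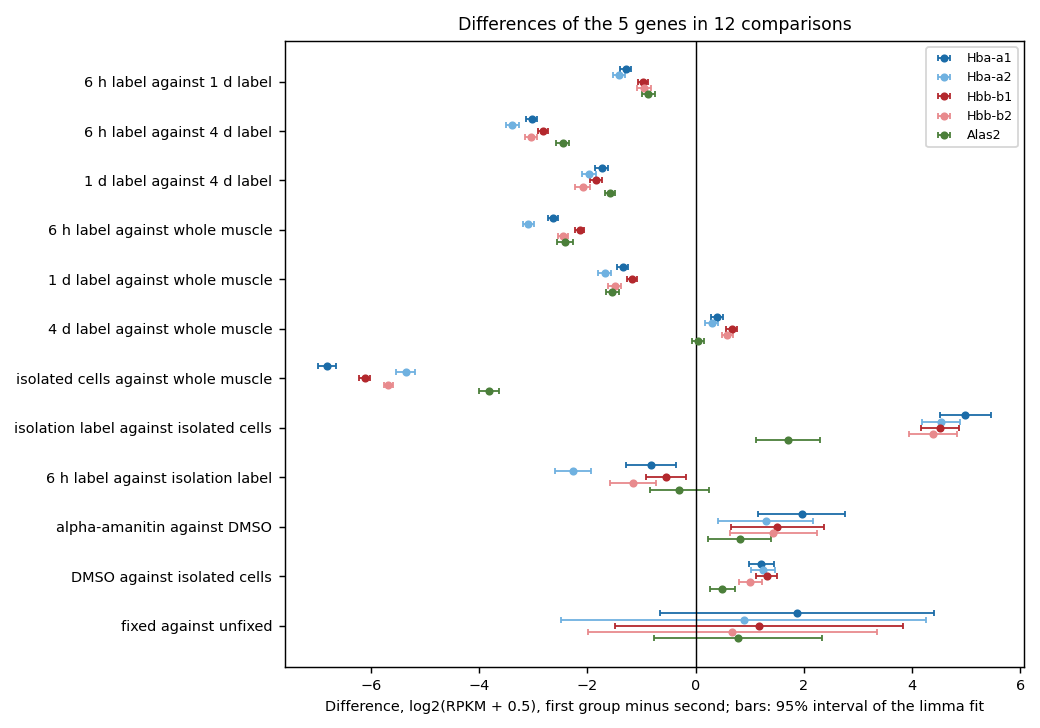
Difference on the log2(RPKM + 0.5) scale (first group minus second) of each of the 5 genes in 12 comparisons between groups of libraries, with the 95% interval of the limma fit. The 5 genes lie on the same side of 0 in each comparison, with intervals that exclude 0 except for Alas2 in the 4 d label against whole muscle and the 6 h label against the isolation label, and for all 5 genes in the fixation comparison.

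Cells isolated with alpha-amanitin held more globin RNA than those isolated with DMSO. Hba-a1 measured 40.5, 130, 140 and 124 RPKM with alpha-amanitin and 26.9, 23.04, 24.8 and 24.4 RPKM with DMSO. Hbb-b1 measured 43.6, 161, 158 and 138 RPKM against 37.3 to 40.6 RPKM, and Alas2 1.79, 4.54, 4.70 and 4.87 RPKM against 1.70 to 2.14 RPKM. Replicate 1 with alpha-amanitin was the lowest for each gene, close to the DMSO libraries. It lay just below all of them for Hba-a2 (9.93 RPKM against 9.999 to 11.5) and within their range for Alas2. All 5 genes were called higher, as were 33.9% of 13710 genes, and 15.7% of all genes were higher by 2-fold or more. Hba-a1 was 3.89-fold higher (adjusted p = 0.00522), Hbb-b1 2.85-fold (0.0137), Hbb-b2 2.71-fold (0.0131), Hba-a2 2.45-fold (0.0258) and Alas2 1.76-fold (0.0318). Without alpha-amanitin replicate 2, only Hba-a1 was called, 1 of the 5 genes. Without alpha-amanitin replicate 3 or 4, or without any 1 of the 4 DMSO libraries, 3 of 5 were called, and without alpha-amanitin replicate 1 all 5. Calls over all genes moved as well, between 2828 and 10660 with 1 library left out, against 6058 with all libraries. Scaled to all reads, the difference of Alas2 was 0.38 (adjusted p = 0.114) and the median of all genes went from 0.28 to −0.29. By limma-voom on the recovered reads Alas2 was not called either (0.92, adjusted p = 0.0544).

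Fibre genes rose with alpha-amanitin too, all 8 of them (median 6.97), to 3.42 to 10.7% of their whole muscle means, where the 5 genes stood at 8.90 to 16.7%. By library the fibre genes summed to 2440, 10050, 11207 and 12178 RPKM in replicates 1 to 4, against 37.9 to 87.3 with DMSO, and replicate 1 was again the lowest. Satellite cell markers were lowest there too (331 RPKM against 622 to 652), as were fibro-adipogenic genes (205 against 495 to 598). Red cell membrane and skeleton genes (10.8 against 6.03 to 6.95) and erythroid transcription factors were highest there. The scaling of replicate 1 was 1.54 times its total, against 0.917 to 0.980 in replicates 2 to 4, which lowers all its RPKM values. By share of reads, the globins were also lowest there (0.0124% against 0.0227 to 0.0276%). Of 7 neutrophil genes 4 were higher (median 0.72), of 7 macrophage genes 4 (median 1.06) and of 11 haem synthesis genes 8 (median 0.90), beside a median of 0.28 for all genes. How far RNA of fibres or blood moved the globin values was not tested.

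The DMSO cells themselves held more globin RNA than the isolated cells that received neither agent. All 5 genes were called higher, as were 24.7% of 14165 genes, and the 4 globins by 2-fold or more, as were 2.05%. Hbb-b1 differed by 1.32 ± 0.0891 (adjusted p = 1.22e-06), Hba-a2 by 1.24 ± 0.102 (4.51e-06), Hba-a1 by 1.22 ± 0.107 (7.73e-06) and Hbb-b2 by 1.01 ± 0.0978 (1.66e-05). Alas2 differed by 0.50 ± 0.108 (0.00526), and it was not called when scaled to all reads (0.27, adjusted p = 0.172) or with all 8 groups in 1 fit (0.0850). Scaled to all reads, the 4 globins were still called but differed by less than 2-fold, from 0.78 for Hbb-b2 to 0.99 for Hbb-b1, and the median of all genes went from 0.12 to −0.22. No library of either group reached the other for any of the 5 genes. All 7 macrophage genes (median 0.76), all 3 endothelial genes (median 1.31) and all 3 fibro-adipogenic genes (median 1.32) were higher with DMSO too, while none of the 8 fibre genes was higher and 2 were lower. Whether these 2 groups were isolated alongside each other is not stated in the labels.

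Ratios within the globin family differed between groups. Alpha to beta globin, each summed over its pair, stood at 1.17 ± 0.0166 in whole muscle, 0.814 ± 0.0108 at 6 h, 1.03 ± 0.0410 at 1 d and 0.962 ± 0.00899 at 4 d. The 4 libraries of whole muscle lay above all 12 libraries labelled in vivo, and the 6 h libraries lay below all others of these 4 groups. In isolated cells the ratio was 0.860 ± 0.0967, in the isolation label 1.11 ± 0.0785, with DMSO 0.827 ± 0.0439 and with alpha-amanitin 1.01 ± 0.0403. Hba-a2 made up 13.5 ± 0.195% of alpha globin RPKM in whole muscle and 10.1 ± 0.523, 11.03 ± 0.491 and 12.8 ± 0.408% at 6 h, 1 d and 4 d. In isolated cells it made up 28.6 ± 2.05%, in the isolation label 23.8 ± 3.39%, with DMSO 29.9 ± 2.46% and with alpha-amanitin 21.4 ± 2.30%. The lowest of these 16 labelling libraries of purified cells, at 19.1%, was above the highest of the 16 libraries of whole muscle RNA, at 13.8%. Hbb-b2 as a share of beta globin varied less, between 7.60 ± 0.244% at 6 h, with the same mean at 1 d, and 11.3 ± 1.40% for the isolation label. How reads common to both copies were placed, and whether they were counted at all, is not known. Their placement can affect these shares and, through the copies' lengths, the alpha to beta ratio.

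Alas2 and the globins also kept different proportions. Per 100 RPKM of Hbb-b1, Alas2 stood at 2.18 ± 0.119 RPKM in whole muscle, 1.64 ± 0.102 at 6 h, 1.62 ± 0.0556 at 1 d and 1.41 ± 0.0516 at 4 d. It stood at 8.005 ± 1.32 in isolated cells, 1.53 ± 0.768 in the isolation label, 4.97 ± 0.611 with DMSO and 3.36 ± 0.581 with alpha-amanitin. The isolated cells were thus richest in Alas2 relative to globin, though both were at their lowest there.

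**Figure D4:**
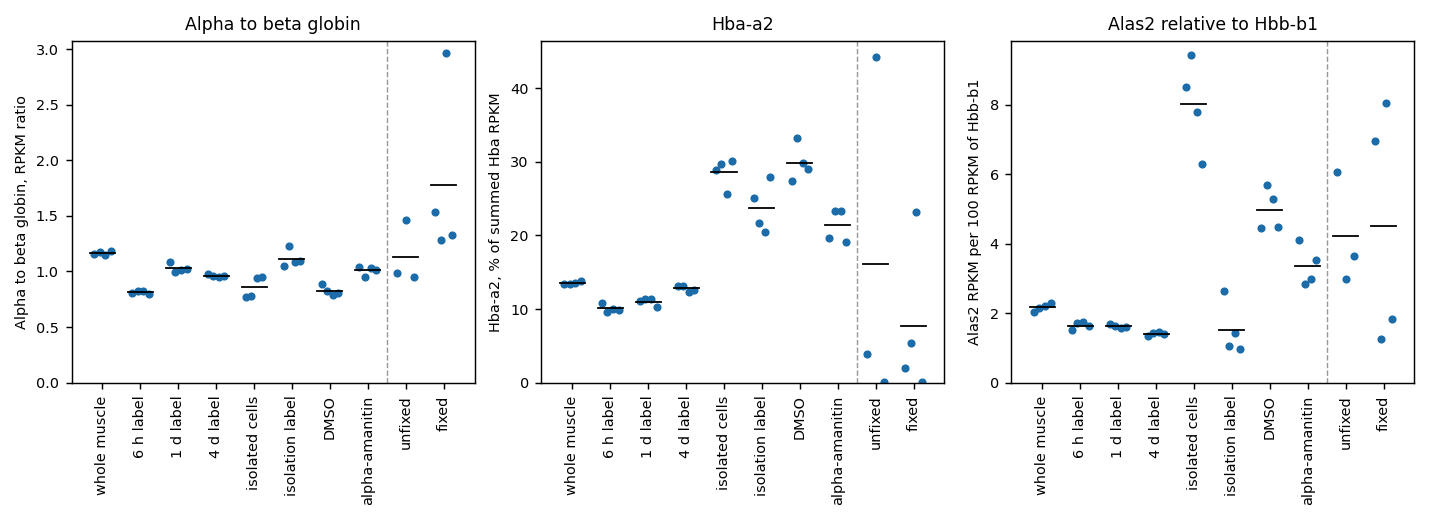
Ratios per library (points) and group means (lines) of alpha to beta globin RPKM, of Hba-a2 as a percent of alpha globin RPKM and of Alas2 RPKM per 100 RPKM of Hbb-b1; the dashed line separates the fixation table. Hba-a2 lies at 9.66 to 13.8% in the labelling libraries of whole muscle RNA and at 19.1 to 33.2% in those of purified cells, while the fixation libraries spread from 0.0733 to 44.2%. Among the labelling groups Alas2 relative to Hbb-b1 is highest in isolated cells.

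In the fixation experiment the globins varied widely between libraries of 1 group, and the groups overlapped for all 5 genes. Hba-a1 measured 26.2, 28.1 and 121 RPKM in unfixed replicates 1 to 3 and 19.5, 371, 105 and 976 RPKM in fixed replicates 1, 3, 4 and 5. Hbb-b1 measured 25.03, 32.6 and 115 RPKM and then 12.5, 287, 43.7 and 692 RPKM in the same libraries. Hba-a1 ranked the 7 libraries exactly as Hbb-b1 did. Hbb-b2 ran from 0.434 to 45.3 RPKM and Alas2 from 0.871 to 12.6 RPKM, both highest in fixed replicate 5 and lowest in fixed replicate 1. Hba-a2 took another course, with 1.08, 22.3 and 0.132 RPKM unfixed and 0.393, 20.98, 31.8 and 0.716 RPKM fixed. Its 2 reads in unfixed replicate 3 and 11 reads in fixed replicate 5 stood beside 2224 and 18250 reads of Hba-a1 in the same libraries.

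None of the 5 genes was called between fixed and unfixed cells by limma, where 23% of 12816 genes were called, and 0 had an unadjusted p under 0.05; limma-voom on the recovered reads also called 0. The difference was 1.88 with a 95% interval from −0.66 to 4.42 for Hba-a1 (adjusted p = 0.262), 0.89 from −2.49 to 4.27 for Hba-a2 (0.712) and 1.17 from −1.50 to 3.83 for Hbb-b1 (0.514). It was 0.68 from −1.99 to 3.35 for Hbb-b2 (0.723) and 0.78 from −0.78 to 2.35 for Alas2 (0.450). These intervals span large changes in either direction. Without fixed replicate 1, Hba-a1 alone was called higher (2.90, adjusted p = 0.0318). Of 6 neutrophil genes tested, 4 were higher in fixed cells (median 3.73), and the 7 measured summed to 92.3, 178, 2029 and 120 RPKM in fixed replicates 1, 3, 4 and 5 against 5.61 to 20.3 unfixed. Fixed replicate 5, the library with most globin RNA, was thus not the one with most neutrophil RNA, which was fixed replicate 4.

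**Figure D5:**
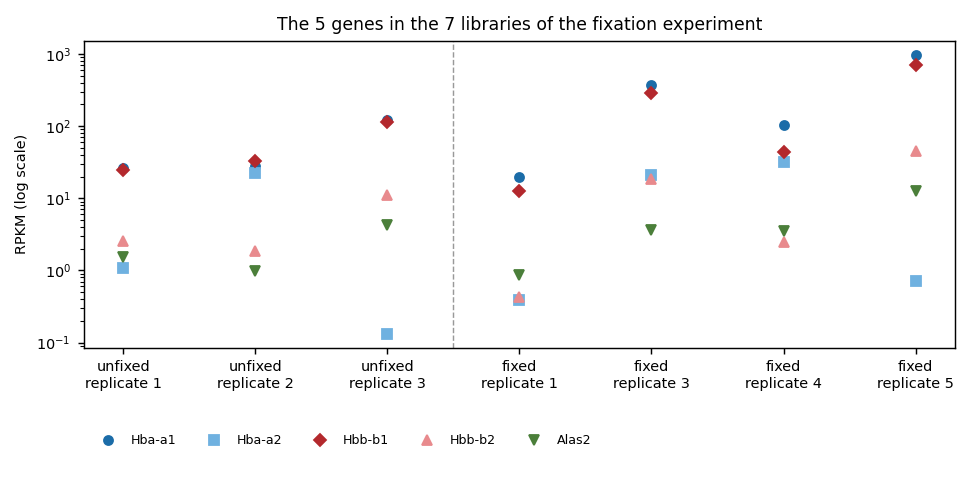
RPKM on a log axis of the 5 genes in each library of the fixation experiment, 3 unfixed and 4 fixed. Hba-a1, Hbb-b1, Hbb-b2 and Alas2 are highest in fixed replicate 5, where Hba-a1 reaches 976 RPKM, while Hba-a2 is at 0.716 RPKM there and at 31.8 RPKM in fixed replicate 4.

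Across the 32 labelling libraries the 5 genes varied together, with a Pearson r of log2(RPKM + 0.5) between 0.928 (Hba-a2 with Alas2) and 0.998 (Hba-a1 with Hbb-b1). In the 7 fixation libraries r lay between 0.902 and 0.986 among Hba-a1, Hbb-b1, Hbb-b2 and Alas2, but between −0.139 and 0.047 for Hba-a2 with each of the other 4. The libraries share groups, and each pair of copies can share reads, so these values are descriptions.

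Over the 16 libraries of whole muscle and the in vivo labels, the patterns of genes outside the 5 were compared with those of Alas2 and Hbb-b1 by Pearson r among 11967 genes. Among the 8 most like Alas2 were Cntnap2 (r = 0.987), Lgals3bp, Ifitm3, Ly6e, G0s2, Rpl31 and Rps6 (r = 0.983). Cntnap2 was low, with a mean of 0.511 RPKM at 6 h, 0.726 at 1 d, 1.76 at 4 d and 1.70 in whole muscle, while Ifitm3, an antiviral membrane protein, had means of 107, 145, 269 and 244 RPKM in the same order. Among the 8 most like Hbb-b1 were Cdh4 (r = 0.989), Stum, Rps18, Ifitm3, Rps15, Rps7 and Ostn (r = 0.976). The 16 libraries fall into 4 groups, so r rests mainly on the group means.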

How the data were processed

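RNA was measured in 39 libraries of 10 groups. The authors deposited RPKM values. The submitters' processing notes name Trim Galore, STAR, featureCounts (Subread), edgeR and mm10, with no role or order, and the sources used here state neither versions nor the use of strand. In the larger table each header cell stands 1 cell to the left of its values, and columns were matched accordingly. No value column was left unused (0 columns). RPKM times gene length gave whole reads within 0.1 of a read for 100% of values in each library, from which reads and library totals were recovered. The scaling in the deposited RPKM differed between libraries, from 0.612 to 1.95 times their totals in the labelling table. Tables were tested separately.

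Differences were fitted with limma 3.58.1 (R 4.3.3) on log2(RPKM + 0.5), with trended empirical Bayes, over genes at 1 RPKM or more in 3 or more libraries of the groups compared. A call is an adjusted p under 0.05 (Benjamini-Hochberg, over all genes tested). The pseudocount understates changes of low genes. The script was tested on simulated data. The alternatives were median-of-ratios factors, library sizes from all reads, no filter, a pseudocount of 1, limma-voom on recovered reads, all groups of a table in 1 fit, a replicate block and each library left out.

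The 5 genes are named in every comparison, genes of 16 lists may be named, and the 8 genes with the highest r to Alas2 and to Hbb-b1 are named as like them; a few genes of the lists and of these 8 are not reported here. Members and lists were chosen with earlier results of these data known. Coding sequences come from GENCODE M21 transcripts and promoters from RefSeq. Figures were drawn with matplotlib 3.10.9 under Python 3.11.15.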

Additional observations from a re-analysis of the deposited data

Results flagged for a closer look

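In groups of 4, 90 sets of values were screened for a library far from the other 3, and 4 stood out; chance flags about 1 set in 20. With alpha-amanitin, replicate 1 lay far below the others for Hba-a1 (40.5 RPKM) and for Alas2 (1.79 RPKM). The scaling of that library, 1.54 times its total against 0.917 to 0.980 in the others, lowers all its RPKM values. In the 1 d label, replicate 3 was high for Hbb-b1 (504 RPKM against 477 to 478), a small gap within a tight group. In the fixed cells, replicate 4 had a high alpha to beta globin ratio (2.96 against 1.28 to 1.53).

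The pull-down from its own total RNA differed between isolation and the 6 h label in vivo for each of the 5 genes, by a limma test of the difference itself. The value was 7.63 for Hba-a1, 7.62 for Hba-a2, 6.66 for Hbb-b1, 6.84 for Hbb-b2 and 4.12 for Alas2 on the log2 scale. Each of the 4 libraries of either label lay on its own side of its total RNA, above isolated cells for the isolation label and below whole muscle for the 6 h label.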

How the results depend on the processing

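Of 90 recomputed counts of called genes with another setting, 88 stayed within 1.5 times the reported count. With all 8 groups in 1 fit, 2 of 5 genes were called in the 4 d label against whole muscle. Replicate numbers did not pair the libraries: same-numbered libraries correlated between −0.591 and 0.236, 17 of 46 correlated best with their own number, and in 0 comparisons were all correlations over 0.1. With a replicate block, 3 of 5 genes were called with alpha-amanitin against DMSO, where calls over all genes went from 6058 to 1978. In the fixation comparison calls went from 2951 to 1825 with the block, and Hbb-b2 (−0.49) and Alas2 (−0.38) changed sign. The block changed the count of called members in no other comparison. Leaving out 1 library gave 1 to 5 called genes with alpha-amanitin, 0 to 1 in the fixation comparison and 4 to 5 for the 6 h against the isolation label, and did not change the count elsewhere. In the fixation comparison, leaving out 1 library gave −0.19 (without unfixed replicate 3) to 2.39 for Hba-a2 and −0.22 (without fixed replicate 5) to 1.65 for Hbb-b2. No other difference of the 5 genes changed sign. Calls over all genes also differed by more than 1.5 times with all groups in 1 fit, from 6090 to 864 for 1 d against 4 d, from 9250 to 5527 and from 9586 to 6037 for 1 d and 4 d against whole muscle, from 6170 to 2338 for DMSO against isolated cells and from 6058 to 9291 for alpha-amanitin. Leaving out 1 library gave 2828 to 10660 such calls for alpha-amanitin, as few as 3678 for DMSO against isolated cells and as few as 1527 in the fixation comparison. The cause was not tested. Few reads limit Alas2 in the isolation label (27 reads in replicate 2) and Hba-a2 in the fixation libraries (2 reads in unfixed replicate 3). Unfixed replicate 3 was not a shallow library, with 24930136 reads in all and 2224 of Hba-a1.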
